A study of Mus musculus with 55 samples.

Results

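CpG-dense stretches inside protein-coding genes, away from the sites where transcription starts, were followed in mouse liver from late gestation to adulthood. A CpG belonged to this set if it lay on an autosome, inside a protein-coding gene, more than 1 kb from every protein-coding start site, and had 10 or more other CpGs of the methylation table within 200 bp on either side. The rule used positions only and no methylation value. It kept 10498 of the 271325 CpGs in the table (3.87%), in 757 genes, and 317 of them lay in more than 1 gene. Because the table counts each strand, these CpGs made up 9083 dinucleotides, of which 1415 were read on both strands.

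Reduced representation bisulfite sequencing (RRBS), which reads CpGs beside the CCGG sites cut by the enzyme MspI, had been run on whole livers of C57BL/6 mice. The groups were fetuses at embryonic stage E18.5, late in gestation (5 libraries), postnatal day 1 (P1, 9 libraries) and 9 weeks of age (9wk, 10 libraries), all without a treatment or an induced mutation. The 9wk mice were male by the study's methods, and mice of its first RRBS experiments ate a chow with coconut oil. The age label of the 9 P1 libraries is P1, but their titles also carry the tag 6Mo, whose meaning is not given. Part of the 9wk libraries came from an earlier study and no label says which, so age and cohort cannot be told apart here. Each library was taken as 1 liver, and depth behind single values was not in the table. Missing values made up 0 to 0.0953% of the set in the E18.5 libraries, 0 to 12.3% at P1 and 0.0476 to 38.9% at 9wk, where the 3 libraries deposited later lacked the most. Between the 9wk libraries deposited first and later, 0 of 7862 CpGs tested passed limma's test, with 608 at an unadjusted p up to 0.05 and a median difference of 0.162 points.

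Methyl groups on CpG cytosines are placed by DNA methyltransferases and are lost through TET oxidation or when maintenance fails at cell division. Most CpGs inside mammalian genes are methylated, whereas CpG-dense DNA is usually protected, most of all at start sites, and dense stretches inside genes fall between these situations. Liver at the end of gestation still houses blood-forming cells, which leave after birth as hepatocytes mature. In whole tissue, a changed share of cells and a changed methylation level within cells cannot be told apart.

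The set was described on the mm9 genome. The rule counted measured CpGs in the same window, so a higher CpG density was fixed by the choice of members. GC content and the ratio of observed to expected CpGs come from that window too. The 200 bp on either side of a member held a median of 21 CpG dinucleotides, against 9 for the 123024 other gene-body CpGs over 1 kb from a start site. GC content had a median of 60.8% against 52.6%, and the ratio of observed to expected CpGs was 0.604 against 0.352. The dense CpGs were mainly exonic: 68.4% lay in coding exons, 3.81% in untranslated exon sequence and 27.8% in introns, whereas 27.01% of the other gene-body CpGs lay in coding exons and 68.6% in introns. They sat a median of 8335 bp from the nearest start site and at 70.8% of the gene's length. Of the members, 1216 lay within 1 kb of a non-coding start site. CpGs under 10% in all samples had been taken out of the table by the authors, so dense stretches that were never methylated are not part of the set and neighbours were counted among the CpGs that were kept.

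The following 3 stretches show such DNA: one that gained methylation between E18.5 and 9wk, one that lost it and one with the smallest change of its level class. Capitals mark the CpGs measured here. All 3 are coding sequence of mm9, printed 5′ to 3′ on the strand of the gene: Mn1 at chr5:111848505-111848654 on the plus strand, Rasal3 at chr17:32533506-32533655 on the minus strand and Gli1 at chr10:126770716-126770834 on the minus strand.
Mn1: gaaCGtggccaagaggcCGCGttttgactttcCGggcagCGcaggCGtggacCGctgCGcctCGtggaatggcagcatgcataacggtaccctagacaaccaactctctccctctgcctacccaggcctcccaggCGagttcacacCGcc
Rasal3: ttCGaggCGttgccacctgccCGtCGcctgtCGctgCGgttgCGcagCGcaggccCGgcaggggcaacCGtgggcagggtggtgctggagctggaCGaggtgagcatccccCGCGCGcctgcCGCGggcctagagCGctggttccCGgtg
Gli1: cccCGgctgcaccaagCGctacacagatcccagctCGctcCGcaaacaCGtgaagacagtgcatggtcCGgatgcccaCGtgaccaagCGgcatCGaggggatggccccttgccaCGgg
The Mn1 window of 150 bases had 11 measured CpGs, that of Rasal3, also of 150 bases, had 18, and that of Gli1, of 119 bases, had 10. GC content was 63.3%, 74.0% and 65.5%. The stretch that lost methylation was the densest of the 3.

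The mean methylation level of dense gene-body CpGs rose at each age in the deposited values, and only from P1 to 9wk once libraries were scaled to each other. Over the 2443 members with a value in all 24 libraries, the 5 E18.5 libraries read 60.1, 59.9, 60.4, 60.4 and 60.4%. The 9 P1 libraries ran from 61.1% through a median of 61.8% to 63.5%, and the 10 9wk libraries from 66.6% through 67.1% to 67.6%. No library of one age fell within the range of another. The group means were 60.2% ± 0.237 (SD, n = 5), 62.2% ± 0.961 (n = 9) and 67.1% ± 0.344 (n = 10). From E18.5 to 9wk the rise was 6.82 points (exact permutation test, two-sided, adjusted p = 0.0005 over the 3 comparisons; unadjusted, 0.000333 is the lowest p possible with 5 against 10 libraries). From E18.5 to P1 it was 1.93 points (exact permutation test, two-sided, p = 0.002) and from P1 to 9wk 4.90 points (exact permutation test, two-sided, p = 1.08e-05). The 3 comparisons share libraries and are not independent of each other. When each library was scaled to the same mean over CpGs above 80%, the first 2 differences became -0.894 and -1.50 points and the last +0.607 points, so the direction of the mean up to 9wk and up to P1 depends on that scaling. Over the whole table the same scaling moved the median change from E18.5 to 9wk from 9.68 to 0.524 points.

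**Figure D1:**
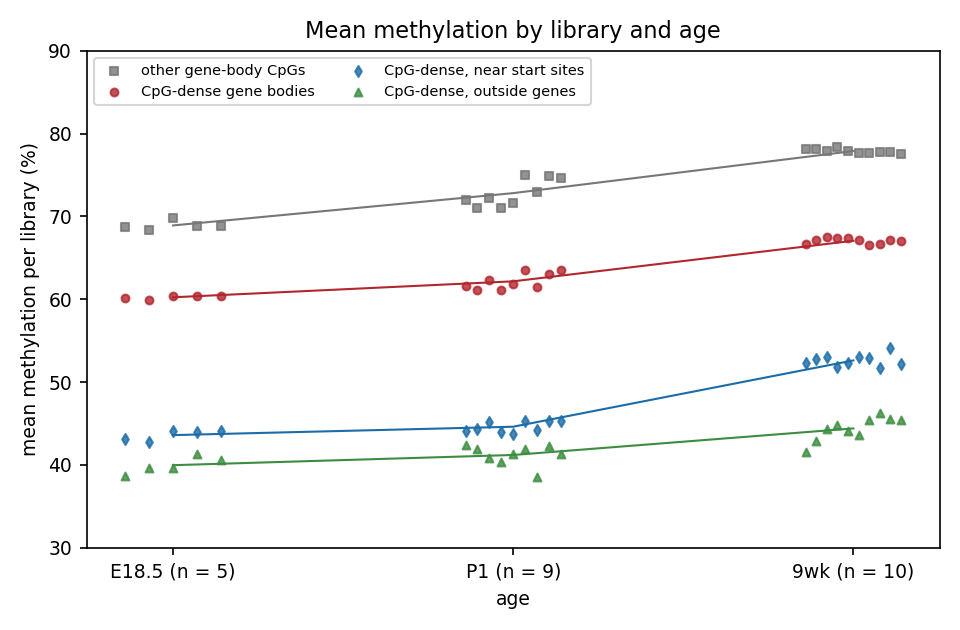
Mean methylation level in percent (y axis) of each library at E18.5, P1 and 9wk (x axis), for dense gene-body CpGs, other gene-body CpGs and the remaining dense CpGs near start sites and outside genes. Each point is 1 library; the dense gene-body libraries read 59.9 to 60.4% at E18.5 and 66.6 to 67.6% at 9wk, below the other gene-body CpGs in every library.

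Dense gene-body CpGs were less methylated than the other gene-body CpGs and gained less. The 27796 other gene-body CpGs with a value in every library had means of 68.9% ± 0.546 at E18.5, 72.8% ± 1.62 at P1 and 77.9% ± 0.265 at 9wk. Within libraries, the dense CpGs were lower by 8.67 points at E18.5 and by 10.8 points at 9wk (change of the difference -2.16 points, exact permutation test, two-sided, p = 0.000333; -0.996 points when scaled, exact permutation p = 0.000666). The gap opened between E18.5 and P1 (-1.97 points, exact permutation test, two-sided, p = 0.000999). From P1 to 9wk the change of the gap was -0.188 points (exact permutation test, two-sided, p = 0.517), a value whose sign turned under several alternatives. Against dense CpGs within 1 kb of a start site, a comparison added after seeing the data, the members were higher by 16.6 points at E18.5 and 14.4 points at 9wk (change -2.19 points, exact permutation test, p = 0.000333). Against dense CpGs outside genes, also added, they were higher by 20.3 and 22.6 points, with a change of +2.38 points (exact permutation test, p = 0.00733) and overlapping ranges.

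The change depended on how methylated a CpG was, and in the least methylated class it was larger than elsewhere in gene bodies. The class of a CpG was set by its mean over all 24 libraries, which includes the ages compared. Among members under 20%, 374 CpGs or 15.3% of the set, the level was 8.22% ± 0.199 at E18.5, 9.05% ± 0.697 at P1 and 17.5% ± 0.735 at 9wk. The corresponding 1375 other gene-body CpGs, 4.95% of theirs, went from 10.8% at E18.5 to 14.2% at 9wk. Rises were thus 9.25 and 3.42 points, and their difference of 5.82 points had no overlap between ages (exact permutation test added after seeing the data, p = 0.000333, adjusted p = 0.000599 over the 9 class comparisons). The filter and the class both used 9wk values, so this p-value describes the CpGs kept and is no independent support.

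In the other classes the order was reversed. Members between 20 and 80% rose by 5.02 points, from 48.4 to 53.5%, against 7.91 points for other gene-body CpGs (difference -2.89 points, exact permutation test, p = 0.000333). Members above 80% rose by 7.46 points, from 86.5 to 94.0%, against 10.2 points (difference -2.73 points, exact permutation test, p = 0.000333). With libraries scaled as above, members under 20% rose by 7.80 points and other gene-body CpGs by 1.94 points, whereas the 2 higher classes of members changed by -1.16 and -3.50 points. Among the 3 classes of members, only the rise of the least methylated one had the same direction with and without scaling. That class is also the one from which the filter at 10% had removed CpGs that stayed low.

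**Figure D2:**
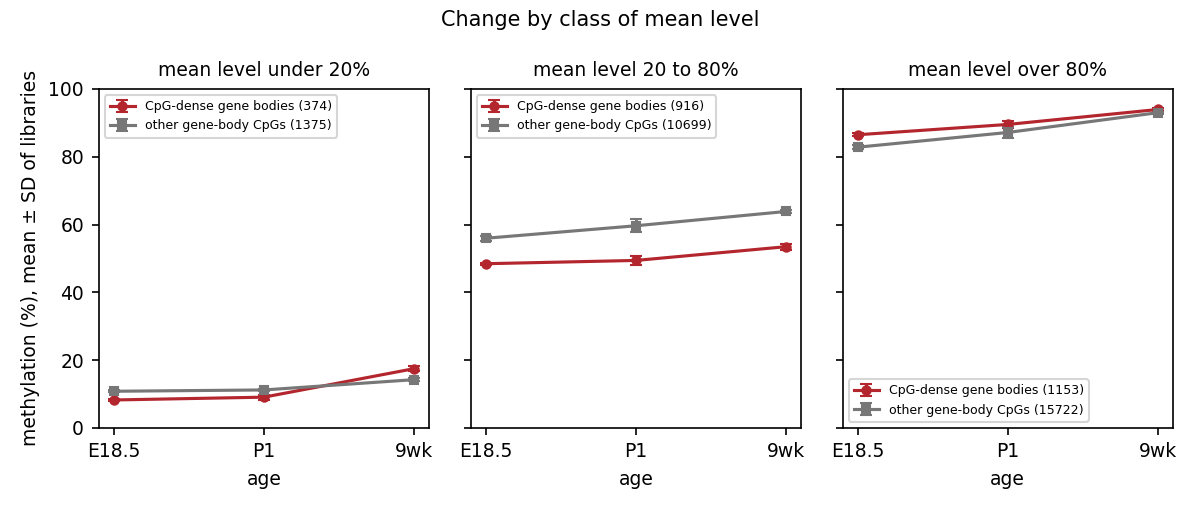
Mean methylation in percent (y axis; points are means of the libraries and bars are SDs) at each age (x axis) in 3 panels by mean level, for dense and for other gene-body CpGs. In the panel under 20% the dense CpGs start lower, at 8.22%, and end higher, at 17.5%, than the other gene-body CpGs at 10.8 and 14.2%.

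Seen as shares of CpGs, the dense set moved out of the low and middle range. CpGs under 20% made up 19.3% ± 0.166 of the members at E18.5, 18.48% ± 0.715 at P1 and 14.2% ± 0.963 at 9wk. CpGs above 80% made up 39.5% ± 1.17, 44.1% ± 2.35 and 50.8% ± 0.754. Among other gene-body CpGs the share under 20% was 6.26% at E18.5 and 5.86% at 9wk, and the share above 80% went from 38.7% to 63.5%.

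CpG by CpG, most members that changed gained methylation. A CpG was called with limma at an adjusted p up to 0.1 (Benjamini-Hochberg over the whole table) and a difference over 5 points. Of 9635 members tested between E18.5 and 9wk, 4787 gained and 848 lost, that is 5635 called, where 58.5% of all CpGs tested gained and 6.46% lost. The median change was 7.25 points against 9.68 over the table. Changes over 30 points were called as a gain at 778 members and as a loss at 396, where the table had 4.69% and 2.24%. Scaled between libraries, 1865 members gained and 2218 lost, so the share of gains among their calls is a matter of scaling. Over the whole table, 43054 of the 249729 CpGs tested gained and 33553 lost when scaled.

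Calls were few in the first days and many later. From E18.5 to P1, 18 of 10098 members gained and 3 lost, where 0.54% and 0.0119% of the table did, and 1009 members had an unadjusted p up to 0.05. From P1 to 9wk, 3066 of 8936 members gained and 807 lost, where the table had 36.1% and 7.0%. Scaled between libraries, limma called 0 members from E18.5 to P1, where it called 1 of the 267997 CpGs tested. At an unadjusted limma p up to 0.05 there were 857 members. From P1 to 9wk it called 1678 gains and 1239 losses when scaled, where the 227069 CpGs tested had 29888 and 22313. The strands of one dinucleotide gave a check within a library: of 1123 dinucleotides with both strands tested from E18.5 to 9wk, 500 were called on both, all 500 in the same direction, and the strands differed by a median of 3.66 points.

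Changes over 30 points were called at 12.2% of the members tested, 6.93% of all CpGs tested and 7.35% of the other gene-body CpGs. Dense CpGs within 1 kb of a start site had a higher share, 17.5%, and dense CpGs outside genes had 8.81%. Among the members, the share was largest in the densest ones. Of 1278 tested members with 20 or more neighbours, whose mean level was 44.7%, 24.9% changed by over 30 points, 159 up and 159 down. A few long stretches can weigh on these counts. Of the 22 clusters of 30 or more CpGs, chained as described below, 1 gained and 4 lost by over 30 points. Their part in the 159 was not counted. Of 3667 with 10 or 11 neighbours, mean level 69.5%, 8.399% did. By position, 17.4% of the members at 1 to 2 kb from a start site and 6.52% of those beyond 20 kb changed that much, and 18.97% in the first 25% of the gene's length against 10.6% in the last 25%. By annotation the shares were 11.1% in coding exons, 14.5% in introns and 14.9% in untranslated exon sequence, where other gene-body CpGs had 4.79%, 8.36% and 7.16%. These shares are descriptions without a test, since neighbouring CpGs share fragments. At the edge of the rule, 2229 members with 10 neighbours had a mean level of 70.7% and a median change of 7.40 points, and 3133 gene-body CpGs with 9 had 72.9% and 7.54 points.

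To name genes, members of one gene were chained into clusters with gaps up to 200 bp and at least 5 CpGs, and each cluster's mean per library was tested together with all other clusters of dense CpGs. There were 740 clusters, with a median of 12 CpGs over 186 bp, under 657 gene labels. By the cluster's middle in the transcript with the longest coding sequence, 483 lay in coding exons, 208 in introns, 14 in 3′ and 6 in 5′ untranslated sequence. From E18.5 to 9wk, 473 of 721 tested clusters gained and 70 lost, where 64.5% and 10.0% of all dense clusters did. Over 30 points, 46 gained and 19 lost, where the shares were 6.78% and 2.23%. In 399 of the 543 called clusters the libraries of both ages did not overlap, a count that was not made for the other dense clusters. Scaled between libraries, 153 gained and 228 lost, where 292 and 337 of all 1165 dense clusters tested did.

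In 50 clusters, some CpGs were called as gains and others as losses from E18.5 to 9wk. All 46 gains and 19 losses over 30 points except 5 gains were at clusters with a mean level between 20 and 80%. That level is the mean over all libraries, which includes the ages compared. A change over 30 points by itself moves a cluster toward the middle class, so these counts by class were largely fixed in advance. Of the 83 tested clusters under 20%, 62 gained and 5 lost, with a median change of 11.0 points. Of the 358 above 80%, 264 gained and 3 lost, none over 30 points. Among 22 clusters of 30 or more CpGs, 12 gained and 6 lost, with 1 gain and 4 losses over 30 points.

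**Figure D3:**
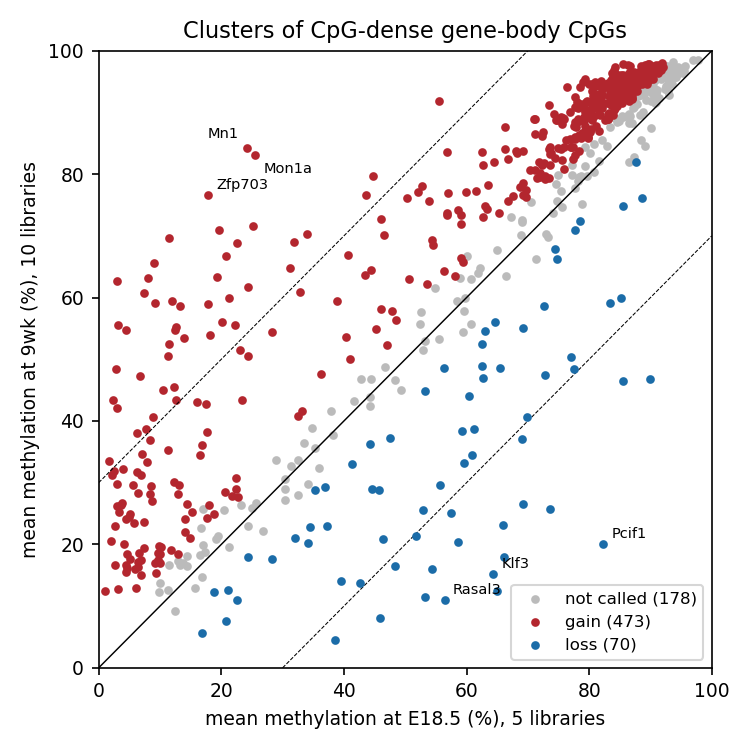
Mean methylation in percent at 9wk (y axis) against E18.5 (x axis) of each tested cluster of dense gene-body CpGs, coloured by call; the solid line marks no change and the dashed lines a change of 30 points. The 473 gains lie above the line and the 70 losses below it, with Mn1 at 24.1 and 84.2% and Pcif1 at 82.3 and 20.1%.

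The largest gain was in Mn1, which encodes a transcriptional coactivator rearranged in some leukaemias and meningiomas. Its cluster of 18 CpGs in coding exon 1 of 2 (chr5:111848374-111848661) read 25.03, 21.4, 25.4, 24.2 and 24.7% in the E18.5 libraries. At P1 it ran from 23.6% through a median of 28.2% to 32.5%, and at 9wk from 72.2% through 85.9% to 90.2%. The lowest adult library thus lay far above the highest newborn one. The gain was 60.1 points (SE 2.62, limma adjusted p = 6.8e-12), and all 18 CpGs tested were called as gains. The other clusters of the same exon rose from 6.71 to 47.3% (40.6 points) and from 11.4 to 69.7% (58.2 points).

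A gain of like size was seen in 2 further genes. Zfp703, a zinc finger transcriptional repressor, has its cluster of 23 CpGs in the last exon (chr8:28090087-28090495). It read 18.03, 13.7, 18.3, 17.2 and 21.997% at E18.5, 16.9 to 26.5% with a median of 23.5% at P1 and 69.5 to 82.6% with a median of 77.1% at 9wk. E18.5 and 9wk were apart by 58.8 points (SE 1.97, adjusted p = 3.5e-13). Mon1a, a factor in endosome and vesicle maturation, has 14 CpGs at coding exon 4 of 6 (chr9:107803473-107803657), 78.6% of them in coding sequence. They read 25.1, 23.5, 26.9, 27.9 and 23.96% at E18.5, 22.3 to 30.6% with a median of 26.7% at P1 and 76.0 to 87.4% with a median of 83.8% at 9wk. The gain was 57.7 points (SE 1.53, limma adjusted p = 2e-14), and the adult libraries also lay above all P1 libraries.

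Some gains started from almost no methylation. Fbrsl1 had 35 CpGs in its last exon (chr5:110792380-110792669) that read 2.98, 2.67, 3.91, 3.34 and 2.82% at E18.5, 2.96 to 6.84% with a median of 4.99% at P1 and 45.6 to 64.2% with a median of 57.2% at 9wk. Its gain was 52.5 points (SE 2.45, limma adjusted p = 1.6e-11), with 35 of 35 CpGs called. Only 14 of the 35 could be tested from E18.5 to P1, where a test needs 1 library at 10% or above. CpGs under 10% in all samples had been removed, so CpGs this low when young could be kept through 9wk alone. The count of called CpGs was thus largely fixed by the filter. Gm1614, a single-exon gene model, rose from 2.75% ± 0.684 to 48.4% ± 5.70, and 6 of its 21 CpGs could be tested from E18.5 to P1. Sorbs3, which encodes the adhesion adaptor vinexin, rose in intron 11 from 7.33% ± 1.67 to 60.8% ± 9.24 (53.5 points, adjusted p = 3.4e-09). In Pml, the scaffold of PML nuclear bodies, coding exon 2 rose from 12.4% ± 3.34 to 54.8% ± 7.47 (42.3 points, adjusted p = 6.9e-09).

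Among the rest of the 10 largest gains, Myo7a, an unconventional myosin of sensory hair cells, rose in intron 2 from 25.2% ± 2.53 to 71.6% ± 3.97. The gene model AI661453 rose from 19.6% ± 1.58 to 70.9% ± 5.94. A stretch shared by Chpf2, a chondroitin-polymerizing factor, and Smarcd3, a BAF chromatin remodelling subunit, rose from 19.4% ± 1.95 to 63.4% ± 6.90. In all 10, the P1 mean lay within 6.28 points of the E18.5 mean.

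The largest loss was in the last exon of Pcif1, a cap-specific RNA methyltransferase, in a stretch that overlaps Zfp335. The middle of the stretch lay in 3′ untranslated sequence of Pcif1, while 54.5% of its CpGs lay in annotated coding exons. The 11 CpGs (chr2:164717620-164717797) read 79.3, 85.5, 83.6, 80.8 and 82.2% at E18.5, 76.0 to 90.03% with a median of 85.4% at P1 and 13.7 to 25.4% with a median of 21.9% at 9wk. The loss was -62.2 points (SE 1.91, limma adjusted p = 1.1e-13), and the adult libraries also lay below all P1 libraries. Klf3, a Krüppel-like transcriptional repressor, has 11 CpGs in intron 1 (chr5:65199989-65200132) that read 60.1, 67.3, 63.5, 67.8 and 63.3% at E18.5, 56.4 to 63.5% at P1 and 7.79 to 29.99% at 9wk. Its change was -49.2 points (SE 2.62, adjusted p = 8.9e-11).

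Long stretches were among the losses, with P1 means between those of E18.5 and 9wk. Rasal3, a Ras GTPase-activating protein, has 44 CpGs in coding exon 10 of 19 (chr17:32533368-32533752). They read 52.6, 56.8, 56.9, 57.1 and 58.8% at E18.5, 29.3 to 60.3% with a median of 48.0% at P1 and 6.29 to 16.3% with a median of 10.8% at 9wk. P1 libraries spread widely and overlapped E18.5, while adult libraries lay below all others. The change to 9wk was -45.5 points (SE 1.62, adjusted p = 7.5e-13), and 44 of 44 CpGs lost methylation. The 44 CpGs in 2700081O15Rik went from 66.0% ± 2.30 to 58.1% ± 5.11 and 23.1% ± 5.78. The 46 CpGs in BC020535 went from 58.6% ± 3.16 to 52.2% ± 6.13 and 20.3% ± 5.19. From E18.5 to P1, 2700081O15Rik fell by 7.93 points (adjusted p = 0.04), whereas the difference in BC020535, -6.39 points, did not pass (adjusted p = 0.107) and that in Rasal3 passed but was lost in 8 of 14 fits with 1 library left out.

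The 10 largest losses held 5 more genes. Runx3, a Runt-domain transcription factor of T cells, fell in its last exon from 53.2% ± 4.28 to 11.5% ± 2.33 (-41.7 points, adjusted p = 3.3e-12). Sipa1, a Rap GTPase-activating protein, fell from 69.2% ± 4.53 to 26.6% ± 8.98, and Agap2, an Arf GTPase-activating protein, from 54.4% ± 4.88 to 16.0% ± 6.24. Rnf220, an E3 ubiquitin ligase, fell in intron 3 from 38.6% ± 4.89 to 4.50% ± 2.04. Sema6b, a transmembrane semaphorin, fell in its last exon from 57.5% ± 2.78 to 25.04% ± 4.27. All 20 clusters named here as largest gains or losses kept their call under each of 490 alternative values, with a smallest absolute difference of 28.7 points. Clusters picked for large, separated changes could hardly lose their call. The alternatives here left out neighbour count, strands, start-site distance and cluster gaps, and 10 of the 20 had a value over CpGs present in all libraries. For example, the nearest CpGs of Mn1 and Myo7a lay 1912 and 1150 bp from a start site, inside the alternative limit of 2 kb.

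**Figure D4:**
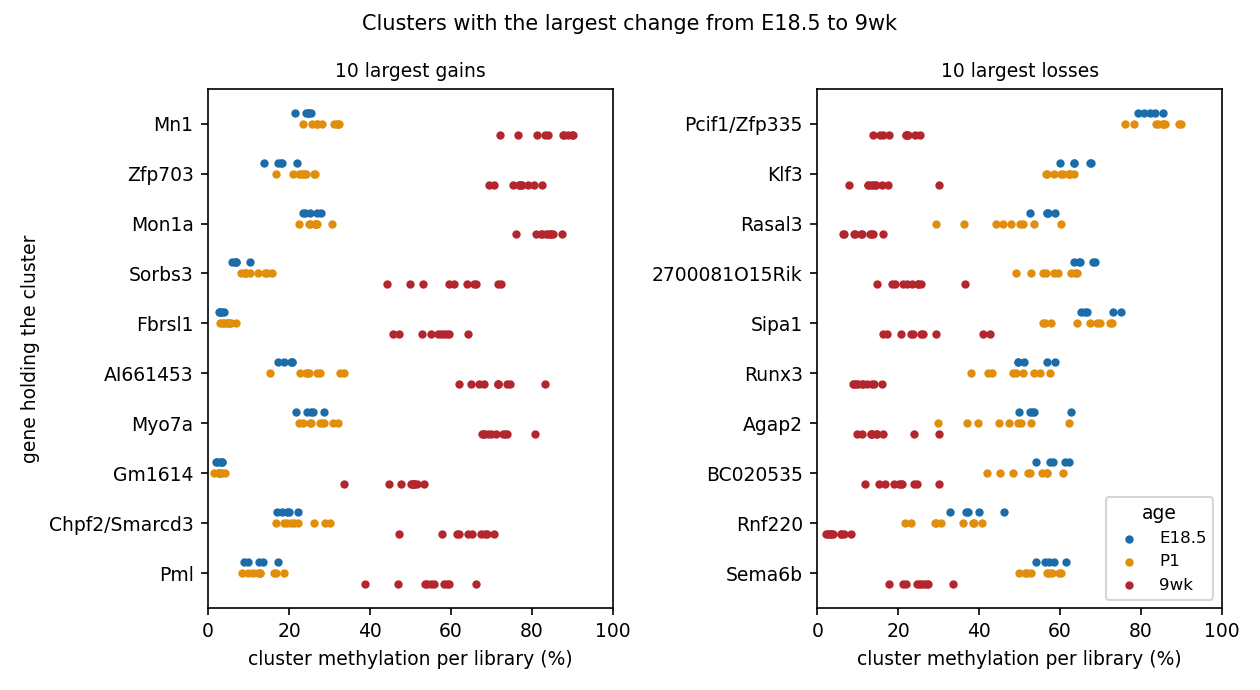
Cluster means in percent (x axis) of each library at E18.5, P1 and 9wk for the 10 largest gains (left) and the 10 largest losses (right), 1 gene per row. Rows were picked for E18.5 and 9wk ranges that do not overlap, so the 9wk points stand apart from the E18.5 points in every row. Examples are Mn1 (72.2 to 90.2% against 21.4 to 25.4%) and Pcif1 (13.7 to 25.4% against 79.3 to 85.5%).

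At the other end were the clusters with the smallest change of their level class from E18.5 to 9wk. Gli1, the Hedgehog-pathway transcription factor, has 14 CpGs in coding exon 11 of 13 that read 79.3, 74.4, 80.2, 76.5 and 78.0% at E18.5, 77.0 to 85.9% at P1 and 55.5 to 87.7% at 9wk. Means were 77.7% at both ends (difference 0.0287 points, SE 4.39, adjusted p = 0.996), and the adult libraries spread on both sides of the younger ones. Scaled between libraries the difference was -9.50 points and passed as a loss (adjusted p = 0.0572), and from E18.5 to P1 the unscaled cluster passed as a gain of 5.29 points (adjusted p = 0.043). Tnxb, which encodes tenascin X, stood at 17.3% ± 1.01 and 18.8% ± 3.57 over 28 CpGs, with a scaled difference of -0.667 points. Tshz3, a teashirt zinc finger protein, stood at 81.6% ± 1.93 and 82.1% ± 7.42, with a scaled difference of -9.62 points that passed as a loss (adjusted p = 0.0104).

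The genes with the most members did not share one pattern. Agap3, an Arf GTPase-activating protein, has 98 members in a single cluster of intron 1 (chr5:23980143-23980999), which read 3.99, 4.23, 4.28, 3.17 and 4.198% at E18.5, 3.09 to 5.97% at P1 and 26.2 to 39.96% at 9wk. All 82 of its CpGs tested gained (28.3 points for the cluster, SE 1.99, limma adjusted p = 2.4e-09). CpGs this low at E18.5 and P1 could be kept in the table through 9wk alone, so this count was largely fixed by the filter at 10%. Cux2, a homeodomain transcription factor, has 65 members, and its 5 clusters all gained, by 8.21 to 15.6 points, of which those at 15.6 points, 2 in number, still passed when scaled (7.63 and 6.66 points) while the others ranged from -1.31 to 4.66 points. Dchs1, an atypical cadherin, has 72 members in coding exon 10, with 14.3% ± 1.32 at E18.5 and 18.2% ± 4.61 at 9wk (3.82 points, adjusted p = 0.098, not called). ORF61 has 60 members, 19 of them shared with Grin3b, and its own cluster stood at 92.5% and 94.3% (-9.63 points when scaled). Gm20388 has 110 members, 66 of which it shares with Car5a, Jph3, Rab4a and Zfpm1, so its count is not that of a separate gene. Of its 10 clusters 5 gained and 1 lost.

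In the first days after E18.5, cluster changes were small. From E18.5 to P1, 90 of 707 tested clusters gained and 7 lost, none by over 30 points, where 12.1% and 0.989% of all dense clusters did. In 16 of the 97 the ages did not overlap, again without a count for the other dense clusters. Scaled between libraries 6 gained and 42 lost, where 10 and 63 of all 1112 dense clusters tested did. Without E18.5 replicate 2 the number of member clusters called was 52. Sox5, a developmental transcription factor, had the largest gain, from 55.4, 56.7, 62.5, 52.7 and 50.1% at E18.5 to a range of 58.0 to 78.8% at P1 (11.8 points, SE 3.38, adjusted p = 0.04). It went on to a median of 92.0% at 9wk. Bai2, an adhesion G protein-coupled receptor, rose by 8.28 points to P1 and Itga2b, the platelet integrin subunit, by 7.77 points. The largest early losses were in Rasal3 (-9.91 points, adjusted p = 0.082), Trappc9, a subunit of a vesicle-tethering complex (-8.85 points), and C530008M17Rik (-8.69 points). With 1 library left out, the Rasal3 difference lay between -11.6 and -7.75 points.

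From P1 to 9wk, 313 of 713 tested clusters gained and 74 lost, where 45.0% and 10.1% of all dense clusters did. Over 30 points, 39 gained and 18 lost, where the shares were 5.74% and 2.09%. Scaled between libraries 151 gained and 123 lost, where 286 and 198 of all 1150 dense clusters tested did. The leading gains were Mon1a (56.9 points), Mn1 (55.5 points) and Zfp703 (53.6 points), and the leading losses the Pcif1 stretch (-64.2 points), Klf3 (-45.1 points) and Sipa1 (-38.5 points).

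Gene lists were read beside all 721 tested clusters, of which 473 gained and 70 lost from E18.5 to 9wk, with a median change of 7.46 points. Of 10 clusters in developmental transcription factor genes, 7 gained and 1 lost, with a median of 10.7 points. When scaled 6 gained and 2 lost, with a median of 7.55 points against -2.05 for all clusters. Their median level was 25.8% against 79.8% for all clusters, and tested clusters under 20% in any gene had a median change of 11.0 points. Whether the list differs from other clusters of like level was not tested. CpGs that stayed under 10% had been removed, so clusters at low levels could be kept through 9wk values. In this group Tbx2 gained in both clusters, from 4.45 to 16.7% and from 6.83 to 17.5%, Hoxb5 from 6.49 to 17.2%, Six4 from 7.45 to 23.6% and Sox5 from 55.5 to 91.9%, while a second Gli1 cluster fell by 8.17 points. Of 34 clusters in zinc finger genes, 23 gained and 2 lost (median 7.23 points; 9 and 14, median -3.11 points, when scaled), among them Zfp316, whose 57 CpGs rose from 3.33 to 25.2%. Of 18 in ion channel genes, 13 gained and 2 lost (median 8.27 points; 2 and 4, median -0.496 points, when scaled), with the N-type calcium channel gene Cacna1b at 27.1 points and the potassium channel gene Kcnj6 at -10.01 points. Of 7 in matrix genes, 6 gained (median 13.2 points; 2, median 3.07 points, when scaled), with Adamtsl2 at 28.1 points.

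Lists for liver cells and blood held few clusters. Of 3 in hepatocyte genes, Foxa3, a hepatocyte transcription factor, fell in coding exon 2 from 63.2, 56.4, 60.2, 66.0 and 58.5% at E18.5 to a range of 11.7 to 41.5% at 9wk (-26.4 points, SE 3.97, adjusted p = 2e-05; -32.6 points when scaled). Ass1, the urea cycle enzyme argininosuccinate synthase, gained 6.63 points, which became -3.92 points when scaled, and Cyp2c29, a cytochrome P450 with near-identical copies, stood at a difference of 0.143 points, which became a loss of -7.26 points that passed when scaled (adjusted p = 0.00792). Of 4 tested in blood genes, 3 gained and 1 lost: Itga2b by 20.0 points, Zfpm1 by 10.2 points (0.246 when scaled), Gata2 by 7.23 points and Runx3 by -41.7 points. The libraries hold no measure of the share of blood-forming cells, which the study counted in tissue sections, and its part in these changes was not tested. In the metabolism list, Acacb, acetyl-CoA carboxylase of the mitochondrial surface, gained 13.6 points and did not pass when scaled (3.39 points). Neither of 2 imprinted-gene clusters passed, with Gnas at 42.8 and 46.8% and Cdkn1c at 30.4 and 29.0%, but scaled between libraries Cdkn1c passed as a loss (-5.09 points, adjusted p = 0.0869). Of 2 in clustered protocadherin genes 1 gained, by 6.32 points (-1.31 points scaled).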

How the data were processed

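Methylation in 24 mouse liver RRBS libraries was analysed as deposited. The authors digested DNA with MspI, sequenced 50 bp reads, aligned them with Bismark 0.7.6 and Bowtie2 to mm9, set CpGs under 10-fold coverage to missing, and removed CpGs missing in over 20% of samples or under 10% in all; per the labels and the paper's methods the values are a methylation fraction per CpG, and no counts were used here. Depth per value is unknown, so no counting interval was given, and p-values measure the spread between libraries.

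Fractions were multiplied to percent. Genes and start sites came from GENCODE vM1. The members and gene lists were chosen with earlier results of these data known. Level differences were tested by exact permutation of libraries and CpGs and cluster means by limma 3.58.1 (R 4.3.3), 1 pair of ages at a time, with Benjamini-Hochberg adjustment over the whole table or over all dense clusters. Testing a CpG or cluster required values in 80% or more of the libraries of both ages and 1 library or more at 10% or above, and a cluster mean needed 5 CpGs. The fit was tested on simulated data.

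Named clusters were the 10 largest gains and 10 largest losses over 30 points from E18.5 to 9wk with a value in every library and ranges apart, 1 per gene; the 5 genes with most members; the smallest change in each of 3 level classes; the 3 largest gains and losses of the other comparisons; and the largest of each gene list, some of which are not reported here. Other clusters of these genes and lists were named after their values were seen. Alternatives covered the neighbour count, strands, start-site distance, thresholds, scaling, missing values, fit and single libraries. Neighbour count, strands and start-site distance were varied for means and counts, not for named clusters. Groups follow the age labels, also for P1, whose titles carry the unexplained tag 6Mo. Locus-specific bisulfite data had 0 of 166 CpGs within 2 kb of a member and were not used.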

Additional observations from a re-analysis of the deposited data

Results flagged for a closer look

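Of 90 groups of libraries checked, 9 had 1 library far from the others, and chance alone marks about 1 in 20 groups. At E18.5, the dense CpGs of 1 library were lower than its other gene-body CpGs by -9.38 points, the next library being at -8.55. In the same age group the Sorbs3 cluster had 1 library at 10.2% (next 6.99%), the Agap2 cluster 1 at 62.8% (next 53.6%) and the Trappc9 cluster 1 at 36.9% (next 45.4%). At 9wk the Myo7a cluster had 1 library at 80.7% (next 73.9%), Gm1614 1 at 33.6% (next 44.7%), Klf3 1 at 29.99% (next 17.5%), 2700081O15Rik 1 at 36.5% (next 25.6%) and Tshz3 1 at 63.3% (next 76.8%). Leaving out any single library did not change the E18.5 to 9wk calls of Sorbs3, Agap2, Myo7a, Gm1614, Klf3, 2700081O15Rik and Tshz3. For the E18.5 to P1 difference in Trappc9 the range was -10.7 to -7.26 points, and the call was lost in 4 of 14 such fits.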

How the results depend on the processing

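Scaling between libraries, which holds highly methylated CpGs constant by construction, turned the mean change of members to -0.894 points (E18.5 to 9wk) and -1.50 points (E18.5 to P1), and turned the E18.5 to 9wk change of Gli1 (-9.50), Tshz3 (-9.62), Bai2 (-1.15), Ass1 (-3.92) and Pcdha11/Pcdha3 (-1.31 points). The P1 to 9wk change of members against other gene-body CpGs, -0.188 points, became 0.500 with strands counted as 1 neighbour, 0.0168 with non-coding starts left out, 0.504 when scaled, 0.501 over all CpGs, 0.154 with each gene counted once and -1.23 (exact permutation p = 0.0193) as a median; causes were not tested. Members called were 1174 over 30 points, 1900 with 15 or more neighbours and 1647 with a value in every library (E18.5 to 9wk) and 962, 1462 and 1156 (P1 to 9wk). Clusters called were, for these settings, 65, 137 and 324, and 57, 1.0e+02 (rounded) and 237, with 348 and 254 for strands counted as 1 neighbour and, added after seeing the data, 168 and 130 over CpGs present in all libraries; stricter settings test fewer CpGs. From E18.5 to P1, the 21 members called became 0 at an adjusted p up to 0.05, over 30 points, on the logit scale or scaled (1009 had an unadjusted limma p up to 0.05), 163 with Storey's q, 6 with 15 neighbours, 12 by strands and 32 without moderation. The 97 clusters, whose alternatives were all added after seeing the data, became 0 over 30 points, 18, 50, 48 when scaled and 24 over complete CpGs. Leaving out 1 library gave mean changes of 6.73 to 6.88, 1.76 to 2.06 and 4.76 to 5.06 points (E18.5 to 9wk, E18.5 to P1, P1 to 9wk), changes against other gene-body CpGs of -2.34 to -2.08, -2.15 to -1.82 and -0.337 to -0.0867, members called of 4260 to 5382, 0 to 62 and 3589 to 4227, and clusters called of 509 to 539, 52 to 119 and 374 to 400. Each E18.5 library and P1 replicates 6, 8 and 9, left out, took the E18.5 to P1 members to 0. No paired analysis was possible because the compared ages share fewer than 2 numbers in their titles (1, between P1 and 9wk).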

Other observations

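In 8 genes, 1 cluster of dense CpGs gained and another lost methylation from E18.5 to 9wk. Fbrsl1 gained 52.5 points in its last exon and fell by 43.2 points in intron 2, where 6 CpGs went from 89.99% ± 2.65 to 46.8% ± 11.0. Tns1, which encodes the focal adhesion protein tensin, changed by -37.8 and +29.0 points. Prdm16, a transcriptional regulator of brown fat, gained in 3 clusters, by 7.62, 10.1 and 35.8 points, of which the last alone passed when libraries were scaled (31.8 points), and fell by 16.2 points in 1. Sema6b fell by 32.5 and 11.0 points in its last exon and gained 16.9 points in exon 10. Pml gained 42.3 points in one cluster and fell by 6.15 points in another. Zscan2, a zinc finger gene with 59 dense CpGs in its last exon, rose from 71.0% ± 1.27 to 88.9% ± 2.32.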
